A study of Mus musculus with 20 samples.

Results

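Stathmins, collapsin response mediator proteins (CRMPs) and structural microtubule-associated proteins are followed here as 10 genes chosen by symbol. They comprise 4 stathmins (Stmn1, Stmn2, Stmn3 and Stmn4), 3 CRMPs (Dpysl2, Dpysl3 and Crmp1) and 3 microtubule-associated proteins (Map1b, Map2 and Mapt). All 10 were among the 14924 genes with RNA-Seq and POL-Seq counts. The 3′ end counts covered 9 of them among 9621 genes, Stmn2 having no listed end. HuD binding windows were listed for 3 of them among 1304 protein coding targets.

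The cells were NSC-34, a mouse hybrid line of neuroblastoma and motor neuron-enriched embryonic spinal cord cells, carrying the tetracycline repressor (Trex). HuD cells carried in addition human HuD with His and HA tags, delivered by lentivirus under a tetracycline-regulated CMV promoter, and control cells did not receive HuD. CRAC, which maps the RNA crosslinked to a tagged protein, had 3 HuD and 3 control libraries, and per the labels both kinds of cell received 10 µg/ml tetracycline for 24 h. The published methods give the same dose and time for CRAC, while the published results name doxycycline at 2 µg/ml for 48 h. For inducing the cell lines in general, the methods name doxycycline at 2 µg/ml. RNA-Seq of total RNA and POL-Seq of polysomal RNA had 2 HuD and 2 control libraries each, and 3′ end sequencing had 3 of each, after 2 µg/ml tetracycline for 48 h in the HuD cells. Whether the control cells of these 3 assays received tetracycline is not given in the sources used here. The published methods call the replicates of these 3 assays biological.

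Microtubules grow and shrink at their ends, and the 10 proteins act on this balance. Stathmins bind tubulin dimers and favour disassembly, CRMPs bind tubulin dimers and promote polymerisation, and Map1b, Map2 and tau bind along the lattice and stabilise it. Several of the genes are classical markers of growing neurites, and HuD, an RNA-binding protein of the ELAV family, is known for binding U-rich elements in neuronal mRNAs.

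The RNA-Seq and POL-Seq libraries held 21296012 to 36284728 counts each, the control POL-Seq library of replicate 2 being the shallowest. The 3′ end libraries held 12986862 to 15751036. Elavl4, which encodes HuD, was measured at 78.3 and 97.4 CPM, that is counts scaled to a common library total, in total RNA of control cells and at 237 and 212 CPM in HuD cells, a log2 change of 1.35 ± 0.15 (SE) that did not pass in edgeR's quasi-likelihood test across all genes (adjusted p = 0.0866). Reads of the human transgene can only be counted where they align to the mouse gene, so this value checks the direction, not the amount, of induction. Counts at the mouse 3′ end of Elavl4, which the transgene need not carry, were 64.9 ± 22.9 CPM (SD, n = 3) in control and 46.1 ± 12.8 CPM in HuD cells, with an adjusted p of 0.922 in edgeR and of 0.0306 with the replicate number as a block. Of 7 motor neuron markers 5 were listed, Isl1 being the highest at 34.7 to 47.3 CPM and Chat, which makes acetylcholine, among the lowest at 0.449 to 0.608 CPM, while Mnx1 and Slc5a7 were not listed. All 8 pan-neuronal markers were listed, summing to 1471 to 1694 CPM over the 8 libraries. Rbfox3 among them was at only 0.167 to 0.517 CPM. None of the 3 microglial and 3 fibroblast markers was listed, and of 4 astrocyte markers only Gfap was, at 0.329 to 0.634 CPM.

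HuD windows were listed on Map1b, Dpysl2 and Stmn1. The windows that carry most of their reads, together with those that differ most in sequence, are shown 5′ to 3′ with 11 nt of the transcript on each side, in the RNA sense and with the listed window in capitals.
Map1b, most deletions: uaauauguaguGCUUUUAugauauuugug
Map1b, most covering reads: caaaaaccgagACUUUAUgaauucauuuc
Map1b, GU-rich window: uugcuuggguuGGUUUUUuguuuuuguuu
Map1b, AU-rich window: uuauuuuguuuUAAUAUAUauauauaaaua
Dpysl2, 5′ UTR: uuuaaaccaagUCUUUUUuuuuccggcua
Dpysl2, 3′ UTR: aauauauuugcUCUUUUUuuuuuuuuacc
Stmn1, 3′ UTR: cuggccaguguCCUUUACuuucccuccug

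In GRCm38 coordinates, read from GENCODE vM21 transcripts, the first Map1b window lay at chr13:99421580-99421586, the second at chr13:99421945-99421951, the GU-rich window at chr13:99423999-99424005 and the AU-rich one at chr13:99423135-99423142, all on the minus strand. The Dpysl2 windows lay at chr14:66868433-66868439 and chr14:66803477-66803483 on the minus strand, and that of Stmn1 at chr4:134473471-134473477 on the plus strand. Of the 9 windows on these genes, 8 lay in 3′ UTRs. The AU-rich window of Map1b was the one without UUU inside its capitals.

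Map1b, which encodes the precursor of a heavy and a light chain that bind microtubules in growing axons, held 6 windows, all in its 3′ UTR of 4360 nt. They summed to 124 covering reads and 31 reads with a deletion in the pooled HuD libraries, and to 0 reads in control cells, which ranked Map1b 223 of 1304 targets by covering reads. Of the targets, 4.91% had at least 6 windows, and the median target had 1 window and 27 reads. These counts were not scaled for RNA level or 3′ UTR length. Map1b ranked 1288 of 14842 genes by level in total RNA of control cells, and its 3′ UTR length was at a percentile of 93.2. The window nearest the end of the transcript, 4220 nt after the stop codon and 134 nt before the transcript end, had 21 covering reads and 12 reads with a deletion, the most of the 6. The window 3855 nt after the stop codon had the most covering reads of the 6, at 29, and 3 deletions. A pair of windows stood 14 nt apart, at 1787 and 1801 nt after the stop codon, with 23 covering reads each and 5 and 4 deletions. Since reads can span both, these are not independent counts. The least covered window had 12 reads and 4 deletions, and the AU-rich window 16 reads and 3 deletions.

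Dpysl2, which encodes CRMP2, a tubulin dimer carrier, held 2 windows with the same 7 letters, UCUUUUU, at opposite ends of its transcript. The 5′ UTR window, starting at nt 250 of a 5′ UTR of 320 nt, had 33 covering reads and 5 deletions. The 3′ UTR window, 1862 nt after the stop codon, had 22 covering reads and 8 deletions. The 5′ UTR was an uncommon place, holding 2.73% of the windows of protein coding genes with a listed region. Dpysl2 ranked 429 with 55 reads. Stmn1, which encodes the founding stathmin, held 1 window 68 nt after the stop codon with 6 covering reads and 3 deletions, the lowest values that the table lists, and ranked 1219.

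Control cells had 0 reads at all 9 windows. Per the published methods, locations with reads in control cells were penalised before listing. Few control reads at any listed window, here and below, are thus partly set by that selection. No window of these genes had a p-value under 0.05 in the deposited table. That p-value combines coverage and deletions without adjustment, and was under 0.05 for 20.9% of the windows of protein coding genes. The lowest of the 9 was 0.0536, at the Map1b window with 12 deletions. The replicates were pooled by the authors, so these read counts carry no replicate error, and the depth of the CRAC libraries is unknown. Genes with a window made up 3 of 10 here and 9.90% of the 12953 protein coding genes with RNA-Seq counts. No window was listed for Stmn2, Stmn3, Stmn4, Dpysl3, Crmp1, Map2 or Mapt. The listed windows start at 6 covering reads and 3 deletions, and they also had to pass a motif score threshold and the control penalty. An absence sets no limit on binding below those counts, or at sites that failed the other steps.

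**Figure D1:**
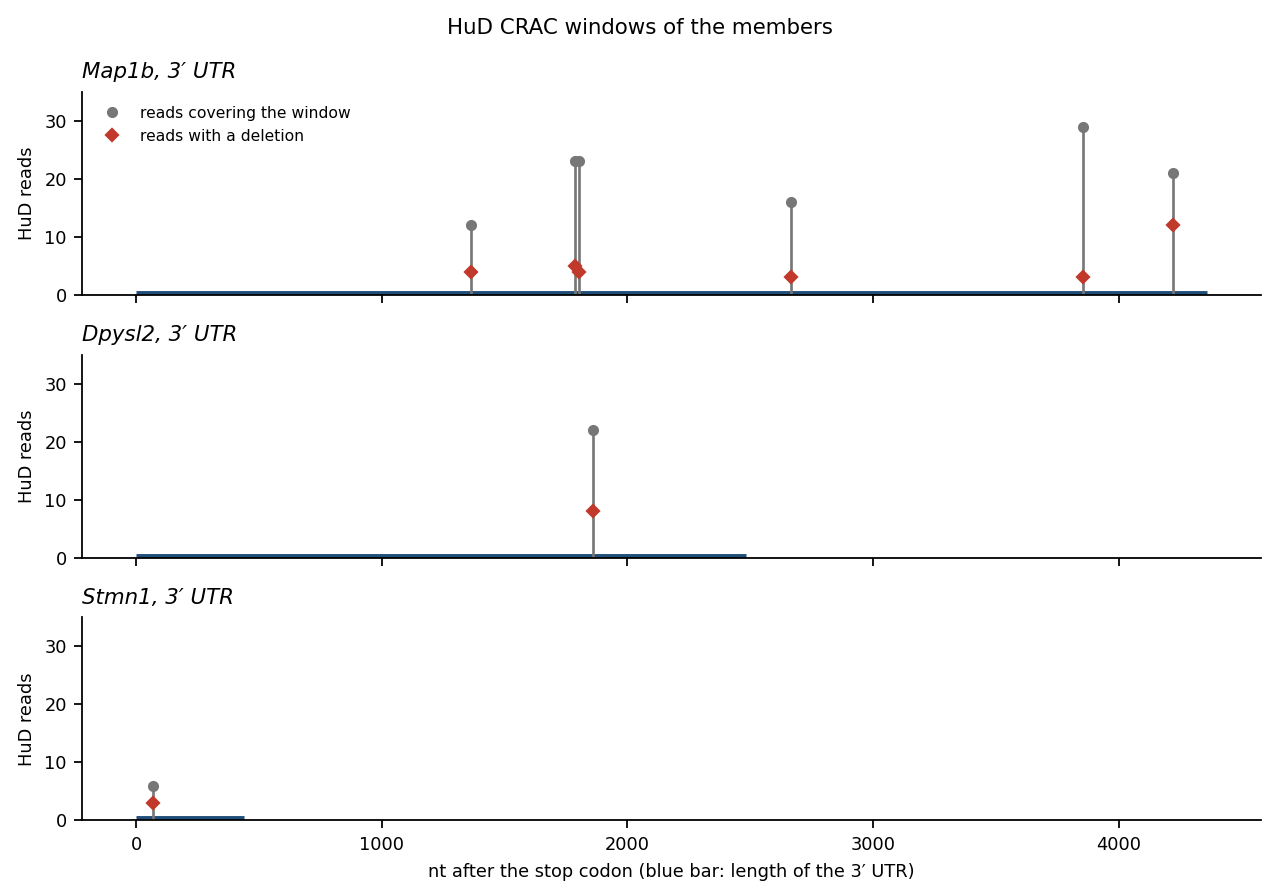
Reads covering each HuD window (grey circles) and reads with a deletion (red diamonds) in the pooled HuD CRAC libraries, against the distance from the stop codon in nt, with the 3′ UTR of each gene as a blue bar. The 6 Map1b windows spread over its 3′ UTR from 1363 to 4220 nt, with 12 to 29 covering reads, while Dpysl2 and Stmn1 have 1 window each there, and the 5′ UTR window of Dpysl2 is not drawn.

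The letters of these windows are common in 3′ UTRs and were also found in members with no window at that place. UCUUUUU, searched on the transcript strand with overlaps allowed, occurred in 31.9% of 12730 3′ UTRs, including those of Stmn1 and Map1b, where it was not a listed window. ACUUUAU occurred in 15.8%, including that of Mapt, and AGUUUGC in 12.0%, including that of Dpysl3. CCUUUAC of Stmn1 occurred in 9.89%, and among the 10 genes in Stmn1 alone.

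Runs of at least 3 U, the core of HuD elements, were counted in the longest annotated 3′ UTR of each gene. Map1b had 127 runs in 4360 nt, or 29.1 per kb, which placed it at the 95.9th percentile of genes by number and the 82.8th by density. Map2 had 100 runs in 3576 nt (28.0 per kb) and Dpysl2 had 69 in 2481 nt (27.8 per kb). Mapt had a 3′ UTR of 3903 nt, longer than that of 90.6% of genes, but 57 runs, or 14.6 per kb, at the 30.4th percentile of density. Stmn4 was lower still in density, with 9 runs in 632 nt or 14.2 per kb, and 20.3% U. The median over all genes was 19.6 per kb and over CRAC targets 27.6 per kb. The authors selected windows by a motif score, and their published motif has a core of 3 U. The density of targets, and UUU within windows, are thus partly set by that selection. Map2 was close to Map1b and Dpysl2 in this density and had no listed window. Its RNA level, given below, was lower than theirs, and whether level plays a part was not tested.

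Levels were compared between genes as FPKM, that is CPM per kb of exon, in total RNA of control cells. Stmn1 was the highest with 215 and 219 FPKM in the 2 libraries, followed by Stmn3, a neuronal stathmin of Golgi and vesicle membranes, with 148 and 147, and Dpysl3, which encodes CRMP4, with 120 and 138. Crmp1 had 64.6 and 72.4 FPKM and Map1b 46.3 and 46.2. These 5 ranked from 200 to 1288 among 14842 genes.

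The other members were much lower. Dpysl2 had 9.70 and 10.3 FPKM, Mapt 8.68 and 8.81, Stmn4 6.14 and 4.52 and Map2 2.44 and 2.74. Stmn2, a neuronal stathmin also known as SCG10 and abundant in mature motor neurons, was near the floor with 0.0536 and 0.0561 FPKM, at rank 14749. It had 7 to 14 reads in each of the 8 libraries, so its changes could not be resolved at this depth. In no pair of neighbours in this order did the ranges of the 2 libraries overlap, though with 2 libraries this is a weak criterion.

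The 3′ end counts, with no length to correct for, gave another order. Stmn1 was again the highest at a mean of 1329 CPM in control cells, but Map2 was 4th among the 9 genes at 223 CPM and Map1b last at 28.4. Per FPKM of total RNA, Map2 had 86.2 CPM of 3′ ends, against a median of 2.21 and quartiles of 0.936 and 5.09 over 9389 genes. Dpysl3 and Map1b were at 0.538 and 0.615. Reads were counted only within 10 nt of an annotated end, and the 2 listed Map2 ends are 2 nt apart, so most of its reads entered the sum at both. Whether the exon length or the listed ends set these ratios was not tested.

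**Figure D2:**
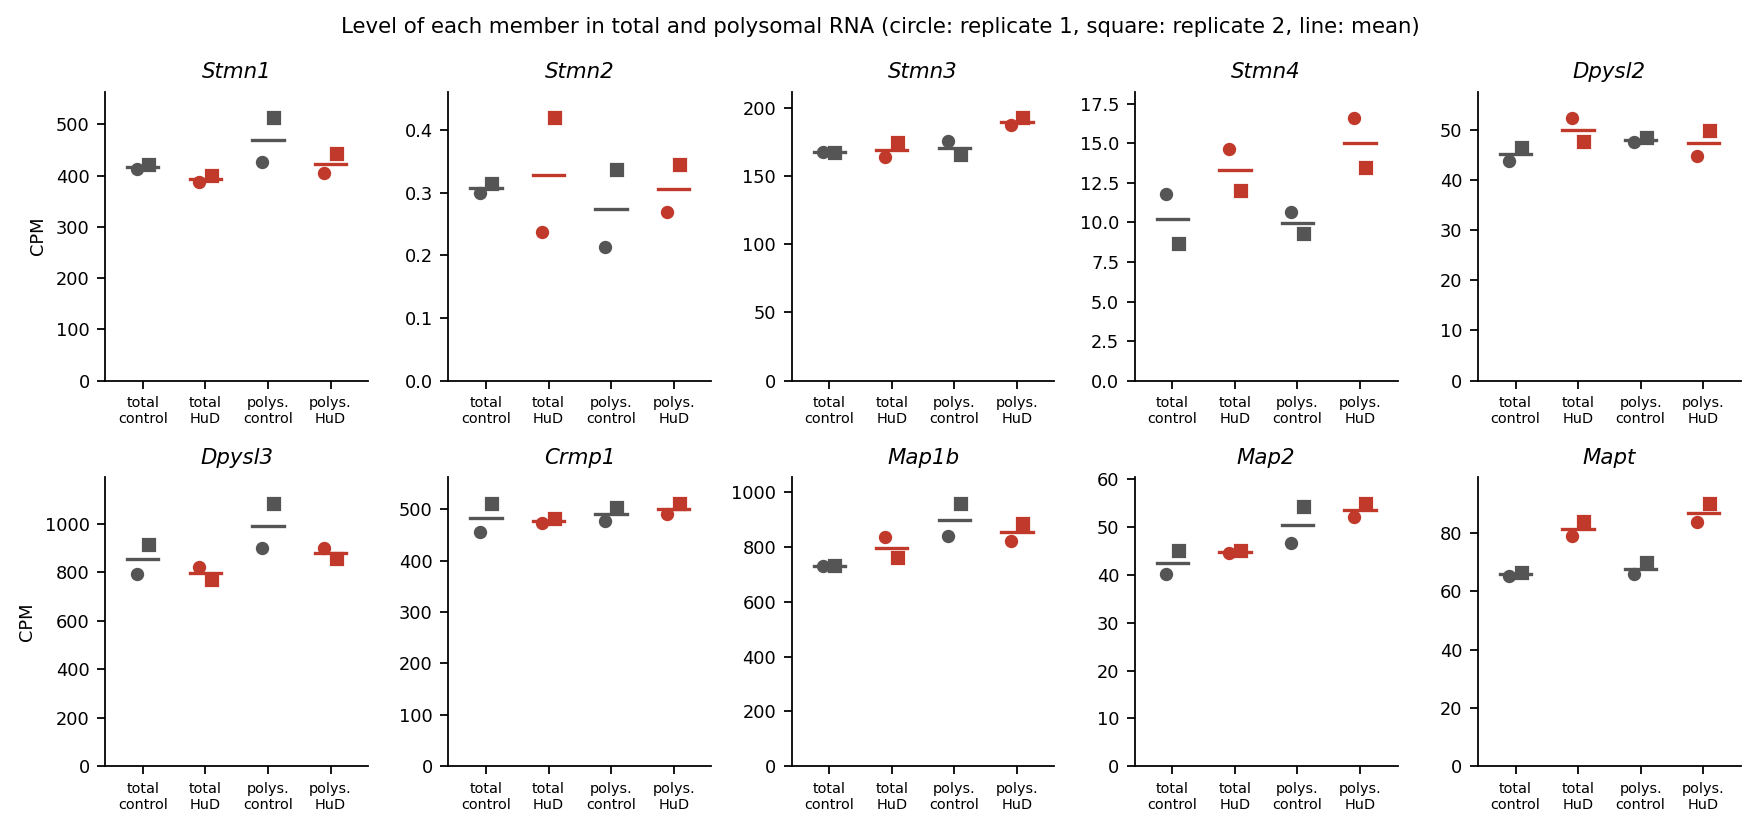
CPM of each gene (vertical axes from 0, each with its own scale) in total and polysomal RNA of control cells (grey) and HuD cells (red), with circles for replicate 1, squares for replicate 2 and a line at the mean. Mapt sits at 65.4 to 69.6 CPM in all 4 control libraries and at 79.1 to 90.1 in all 4 HuD libraries. The HuD libraries of Stmn4 also exceed its control libraries in both fractions. How many of all genes do so was not counted.

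Polysome association, the log2 ratio of polysomal over total RNA, asks how much of an mRNA is engaged by ribosomes relative to other mRNAs. In control cells it was above 0 for 8 of the 10 genes, with a median of 0.06 against 0.01 over all genes. The share of all genes above 0 was not counted. Without regard to sign, the median ratio was 0.129 for the members and 0.145 over all genes. None of the 10 passed edgeR's quasi-likelihood test at an adjusted p under 0.05, a threshold passed by 0.174% of the 14906 genes tested. Of the 10, 2 were higher on polysomes at an unadjusted p under 0.05, Map1b and Map2, where 4.45% of all genes were.

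Map1b was at 733 and 732 CPM in total RNA and at 841 and 959 CPM in polysomal RNA of control cells, without overlap. The log2 ratio was 0.30 ± 0.10 (SE; adjusted p = 0.462 in edgeR). In HuD cells its total RNA was at 836 and 761 CPM and its polysomal RNA at 824 and 886, the fractions overlapped, and the log2 ratio was 0.10 ± 0.10. The difference between the 2 ratios, −0.20 ± 0.15, did not pass (adjusted p = 1.00 in edgeR).

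Map2, a microtubule stabiliser of dendrites, was at 40.1 and 45.0 CPM in total and 46.8 and 54.3 CPM in polysomal RNA of control cells. In HuD cells it was at 44.7 and 45.1 CPM in total and 52.2 and 54.9 CPM in polysomal RNA. The fractions did not overlap in either kind of cell. The log2 ratios were 0.24 ± 0.10 and 0.26 ± 0.10 (SE; edgeR adjusted p = 0.462 and 0.321). In HuD cells an adjusted p under 0.05 was reached by 0.537% of genes and by none of the 10, and Map2 was the single member higher at an unadjusted p under 0.05, where 4.85% of genes were.

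With all libraries neither Map1b nor Map2 passed in control cells, and their ratios varied with the library left out. Without the control POL-Seq library of replicate 1, both passed, with log2 ratios of 0.39 and 0.35 (adjusted p = 0.0325 and 0.0333), but 2145 genes then passed in place of 26. Without the library of replicate 2, the ratios were 0.19 and 0.13 (adjusted p = 0.979 for both). With the replicate number as a block, 10.7% of all genes were higher at an unadjusted p under 0.05 in control cells and 9.20% in HuD cells. The same 2 members were among them in control cells, and Stmn3 and Map2 in HuD cells. Dpysl3 and Stmn1 had ratios of 0.21 ± 0.12 and 0.17 ± 0.10 in control cells, and those of Crmp1, Stmn3, Stmn4, Mapt and Dpysl2 lay between −0.03 and 0.09.

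**Figure D3:**
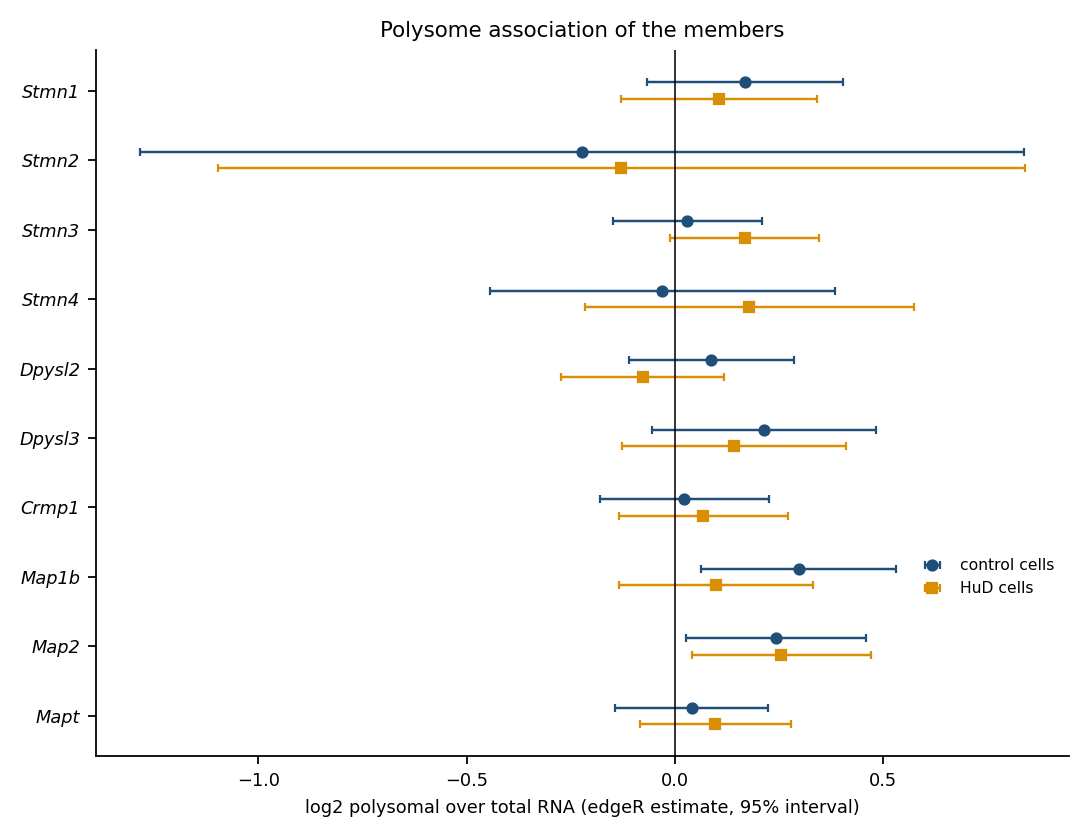
Log2 ratio of polysomal over total RNA for each gene (horizontal axis) in control cells (circles) and HuD cells (squares), with 95% intervals of the edgeR fit. The intervals of Map2 lie above 0 in both kinds of cell and that of Map1b in control cells, while the intervals of Stmn2, counted in 7 to 14 reads per library, are the widest.

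HuD induction was then compared in total RNA, polysomal RNA and 3′ ends. Mapt, which encodes tau, the microtubule-associated protein of axons, was the member with the largest ratio of change to error in all 3. In total RNA it was at 65.4 and 66.4 CPM in control cells and at 79.1 and 83.6 CPM in HuD cells. In polysomal RNA it was at 65.9 and 69.6 CPM in control cells and at 83.9 and 90.1 CPM in HuD cells. Both HuD libraries exceeded both control libraries in each fraction. The log2 changes were 0.30 ± 0.08 and 0.36 ± 0.08 (SE), or 23.5% and 28.5% higher, with edgeR unadjusted p of 0.00419 and 0.00147. Neither passed after adjustment over 14906 genes (adjusted p = 1.00 and 0.969). Separation of the groups was not particular to Mapt. In total RNA, Stmn4, Dpysl2 and Map1b were also higher without overlap, and Stmn1 was lower without overlap. In polysomal RNA, Stmn3 and Stmn4 were also higher without overlap. How many of all genes were so separated was not counted. In bulk RNA, a higher level per cell and a larger share of cells with the transcript cannot be told apart.

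In 3′ end libraries, Mapt was at 86.5, 66.9 and 81.9 CPM in control cells and at 122, 82.0 and 122 CPM in HuD cells, in the order of replicate numbers. The lowest HuD library fell within the control range, but each HuD library was above the control library of its own number, by 0.50, 0.29 and 0.57 on the log2 scale. Without pairing, the log2 change was 0.47 ± 0.18 (SE; adjusted p = 0.820 in edgeR). With the replicate number as a block it was 0.46 ± 0.09 and passed (adjusted p = 0.0257), as 1.04% of genes did in this direction. Mapt thus rose in the paired fit of the 3′ ends. The blocked call was lost without the pair of replicate 1 (log2 change 0.44, adjusted p = 0.207) and kept without that of replicate 2 (0.53, adjusted p = 0.0310) or 3 (0.40, adjusted p = 0.0350).

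**Figure D4:**
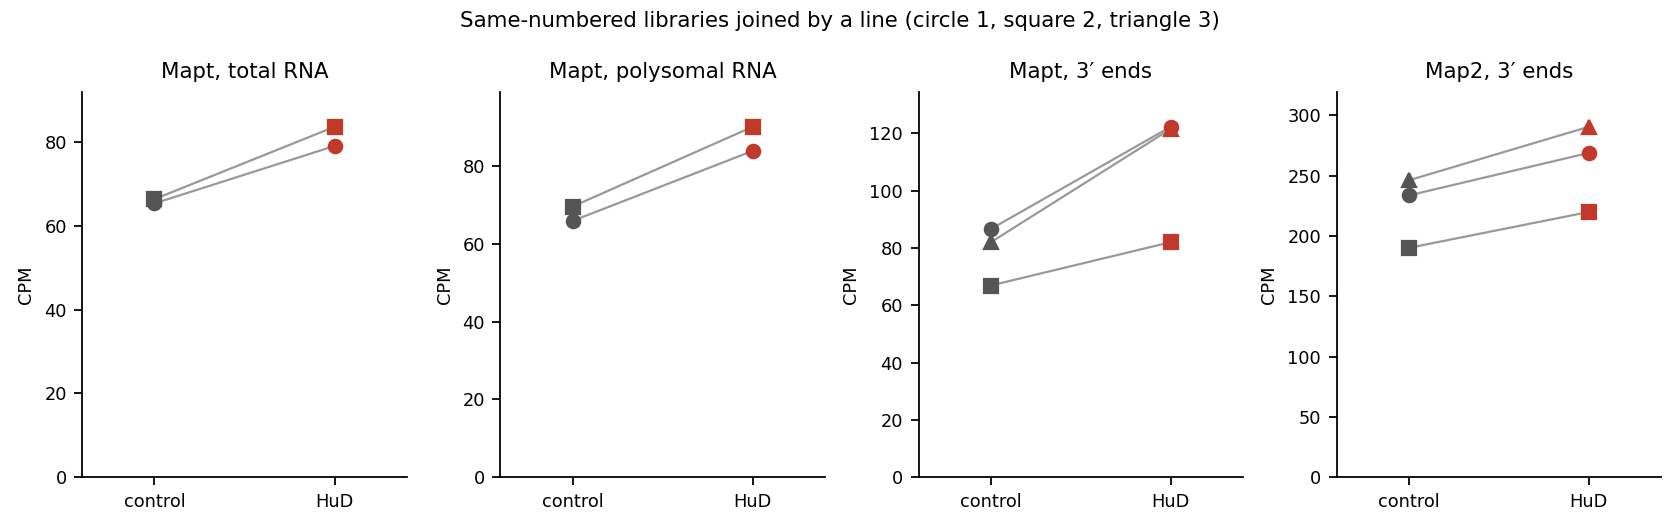
CPM (vertical axes from 0) of Mapt in total RNA, polysomal RNA and 3′ ends and of Map2 in 3′ ends, in control (grey) and HuD (red) cells, with same-numbered libraries joined by a line. Every line rises, for Mapt by 0.27 to 0.57 on the log2 scale and for Map2 in 3′ ends by 0.20 to 0.24.

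Counted over all genes, being higher in HuD cells at an unadjusted p under 0.05 was found for 1.78% of genes in total RNA, 2.29% in polysomal RNA and 2.87% in 3′ ends. Mapt was the only member in total RNA and in 3′ ends, and 1 of 2 with Stmn4 in polysomal RNA. In all 3 comparisons together 9 of 9403 genes (0.0957%) met this, Mapt among them. The other 8, named because the count is small, were Eno2, Klc1, Mapk8ip3, Mllt11, Ndrg4, Rufy3, Spred3 and Sv2a, of which Klc1 encodes a kinesin light chain. An adjusted p under 0.05 was reached by 0% of genes in total RNA, by 0% in polysomal RNA and by 0.0520% in 3′ ends, and by no member. With the block, 3.58% of genes were higher at an unadjusted p under 0.05 in total RNA, with Mapt and Stmn4 among them, and 4.31% in polysomal RNA, with Mapt, Stmn4 and Stmn3.

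Stmn4, a neuronal stathmin, was at 11.8 and 8.66 CPM in total RNA of control cells and at 14.6 and 12.0 CPM in HuD cells. In polysomal RNA it was at 10.6 and 9.24 CPM in control and at 16.6 and 13.4 CPM in HuD cells. HuD libraries were above control libraries in both fractions, by log2 changes of 0.38 ± 0.18 and 0.59 ± 0.18 (SE; edgeR adjusted p = 1.00 and 0.969). The total RNA change was 0.17 without the control library of replicate 2, 0.62 without that of replicate 1 and 0.23 without the HuD library of replicate 1. In the 3′ ends its libraries overlapped, with 70.9, 67.8 and 90.9 CPM in control and 80.4, 81.9 and 81.5 CPM in HuD cells, and a log2 change of 0.09 ± 0.14. The 2 listed Stmn4 ends are 6 nt apart, so reads could enter these values at both.

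Stmn3 was at 167 to 168 CPM in total RNA of control cells and at 164 and 174 CPM in HuD cells. In polysomal RNA it went from 176 and 166 CPM to 187 and 192 CPM, and in 3′ ends from 256 to 262 CPM to 277 to 299 CPM, without overlap in either. The log2 changes, 0.15 ± 0.08 and 0.14 ± 0.11, did not pass in edgeR (adjusted p = 0.969 and 0.955). Stmn1, the most abundant of the 10, was lower in HuD cells by −0.09 ± 0.10 in total RNA, −0.15 ± 0.10 in polysomal RNA and −0.10 ± 0.22 in 3′ ends, none of which passed.

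In 3′ end libraries, Stmn1 stood at 1087, 1723 and 1177 CPM in control and at 1029, 1603 and 1094 CPM in HuD cells, so that replicate 2 was high in both. Crmp1 and Dpysl2 were high in replicate 2 of both groups as well, Crmp1 with 340, 413 and 270 CPM in control and 315, 433 and 213 CPM in HuD cells. Dpysl2 was at 72.0, 99.2 and 65.3 CPM in control and at 58.2, 93.8 and 42.6 CPM in HuD cells, lower in each same-numbered pair. Its log2 change with the block was −0.33 ± 0.11 (SE; edgeR adjusted p = 0.125), and it was the single member among the 10.1% of genes that were lower at an unadjusted p under 0.05. In total RNA Dpysl2 was not lower, at 43.8 and 46.4 CPM in control and 52.3 and 47.5 CPM in HuD cells.

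Map2 was higher in the 3′ ends of each pair, at 233, 190.0 and 246 CPM in control and 269, 220 and 290 CPM in HuD cells. Its 2 listed ends are 2 nt apart, so most reads entered these values and the fit at both. The log2 change with the block was 0.22 ± 0.07 (SE; edgeR adjusted p = 0.136), and 8.64% of genes, with Map2 and Mapt the members among them, were higher at an unadjusted p under 0.05. In total and polysomal RNA its log2 changes were 0.08 ± 0.10 and 0.09 ± 0.10. Map1b, with the most HuD windows, changed by 0.12 ± 0.10 in total RNA, −0.07 ± 0.10 in polysomal RNA and 0.13 ± 0.21 in 3′ ends, with 95% intervals from −0.11 to 0.36, from −0.31 to 0.16 and from −0.34 to 0.60. Dpysl3 and Crmp1 had log2 changes between −0.17 and 0.03 in the 3 comparisons. None of these passed.

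**Figure D5:**
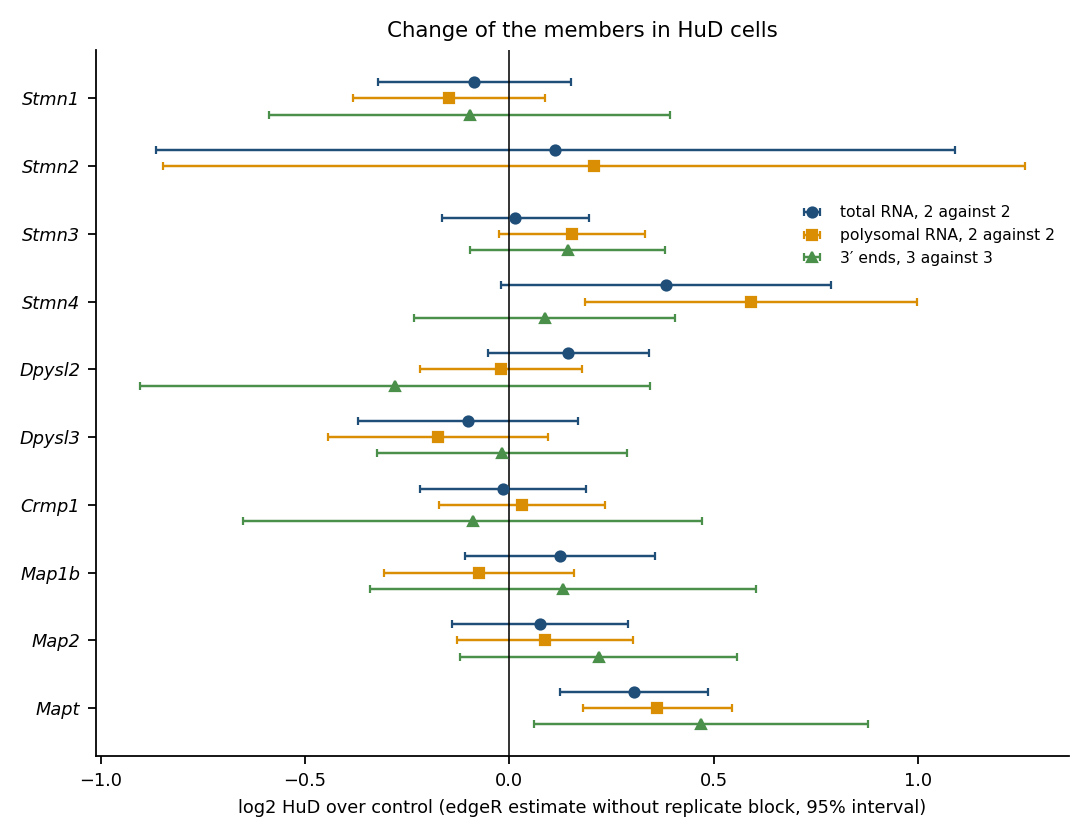
Log2 change in HuD over control cells (horizontal axis) for each gene in total RNA (circles), polysomal RNA (squares) and 3′ ends (triangles), as edgeR estimates without the replicate block and with 95% intervals. The 3 intervals of Mapt lie above 0, as does that of Stmn4 in polysomal RNA, and all other intervals include 0.

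Translational efficiency (TE), was tested as the change of polysomal relative to total RNA, and no member passed. Their log2 changes in TE ran from −0.20 for Map1b to 0.21 for Stmn4, with a median of 0.03 against −0.01 over all genes. An adjusted p under 0.05 was reached by 0% of genes in edgeR and by 0 in DESeq2, an unadjusted one by 0.979% without and 2.43% with the block, and by no member in either. For Mapt the change in TE was 0.06 ± 0.11 (SE), with a 95% interval from −0.20 to 0.31, so that the higher total and polysomal levels differed by less than their error. The Map1b interval ran from −0.53 to 0.13 and that of Dpysl2, at −0.17 ± 0.12, from −0.44 to 0.11.

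The choice between listed 3′ ends could be compared for 4 genes. The distal end of Mapt, at chr11:104332090, took 94.6% ± 0.78 of its counts in control and 94.8% ± 2.04 in HuD cells (SD, n = 3 each). The proximal end, 3849 nt upstream, took the rest. The main end of Crmp1 took 99.4% ± 0.09 and 99.3% ± 0.04, the other lying 32 nt upstream. The 2 ends of Stmn4 were 6 nt apart and those of Map2 2 nt apart, close enough for reads to be counted at both, so their shares do not measure choice. No member passed in the test of site usage in edgeR (adjusted p = 1.00 for all 4), which 0.0301% of the 3317 genes with several ends did. Most of the Mapt 3′ end counts were thus at the distal end in both kinds of cell. Stmn1, Stmn3, Dpysl2, Dpysl3 and Map1b had 1 listed end each, so that no choice could be measured.

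Other regulators of microtubules were described from a list of 78 genes, of which 71 were tested in total and polysomal RNA and 61 in 3′ ends. In total RNA 1 was higher and 0 were lower at an unadjusted p under 0.05, as were 1.78% and 0.865% of all genes. In polysomal RNA 1 was higher and 3 were lower, beside 2.29% and 1.89% of all genes, and in 3′ ends 1 was higher and 0 lower, beside 2.87% and 3.00%. With the replicate block the counts were 6 higher and 1 lower in total RNA (3.58% and 2.58% of all genes), 3 and 5 in polysomal RNA (4.31% and 4.98%) and 6 and 6 in 3′ ends (8.64% and 10.1%). None passed after adjustment in edgeR, with or without the block. The list median stayed between −0.01 and 0.01 in the 3 comparisons. The gene higher in all 3 was Mapk8ip3, which encodes JIP3, an adaptor of kinesin and JNK. It was at 129 and 147 CPM in total RNA of control cells and at 155 and 168 CPM in HuD cells. In polysomal RNA it was at 124 and 134 CPM and at 157 and 164 CPM. In 3′ ends it was at 199, 150.0 and 195 CPM and at 224, 214 and 238 CPM. Its groups did not overlap, but this was a condition for naming a regulator in a comparison and is no added support. Its log2 changes were 0.23 ± 0.10, 0.32 ± 0.10 and 0.32 ± 0.14 (SE), with an adjusted p of 0.0696 in 3′ ends with the block. Lower on polysomes were the severing genes Katna1 (−0.22 ± 0.09) and Fignl1 (−0.25 ± 0.11) and the spindle gene Tacc3 (−0.28 ± 0.12), each with an adjusted p of 0.969 in edgeR.

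In polysome association of control cells, 9 of the 71 genes were higher and 1 was lower at an unadjusted p under 0.05, as were 4.45% and 6.25% of all genes. With the replicate block 18 were higher and 4 lower, beside 10.7% and 9.92% of all genes. Rock2 and Rock1, kinases of the cytoskeleton, were higher by 0.42 ± 0.14 and 0.54 ± 0.19, Ttll7, a tubulin glutamylase, by 0.32 ± 0.11, Dst by 0.27 ± 0.10 and Map9 by 0.25 ± 0.10, and the tubulin cofactor gene Tbcc was lower by −0.26 ± 0.11 (SE; edgeR adjusted p of 0.457 to 0.462). In HuD cells 3 were higher, Dst (0.34 ± 0.10), Ttll7 (0.30 ± 0.11) and Tacc1 (0.19 ± 0.08), and 2 were lower, Katna1 (−0.21 ± 0.09) and Cdk5r1 (−0.30 ± 0.13), beside 4.85% and 7.59% of all genes, and none passed after adjustment. With the block 10 were higher and 4 lower, beside 9.20% and 10.7%. In TE 0 were higher and 0 lower, beside 0.409% and 0.570% of all genes. With the block these counts were 1 and 1, beside 1.09% and 1.34%.

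HuD windows were listed for 7 of the 71 genes, or 9.86%, close to the 9.90% of all protein coding genes. Tbca, which encodes a chaperone of beta-tubulin, had 726 covering reads over 5 windows, more than all windows of the 10 genes together at 185, with 2 control reads and rank 44. Gsk3b, a kinase that phosphorylates tau and CRMP2, had 85 reads over 5 windows, Map7d2 had 67 over 4, Spast 50 over 1 and Mapre2 19 over 2, all with 0 control reads.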

How the data were processed

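Gene-level RNA-Seq and POL-Seq values were used as the authors deposited them, as raw counts. Per the submitters' processing notes, tools included STAR 2.5.3a, TopHat2 2.0.14, FastQC and edgeR, and the build was GRCm38.p4. Total and polysomal RNA came from pooled sucrose gradient fractions. The deposited 3′ end counts are of reads that begin close to an annotated polyadenylation site, and were summed per gene over unique ends. In the CRAC table the authors pooled the replicates, and they deposited coverage, as a signal in reads, counts of reads with a deletion, an unadjusted p-value, and a score of each window against a positional weight matrix. Windows were placed by their sequence on GENCODE vM21 transcripts.

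Tests used edgeR 4.0.16 in R 4.3.3 (TMM, filterByExpr, quasi-likelihood test, diffSpliceDGE with Simes' method, Benjamini-Hochberg at 0.05), on all 8 RNA-Seq and POL-Seq or all 6 3′ end libraries. SE is the log2 change over the root of F. CPM is normalised by TMM. The alternatives were DESeq2 1.42.0, its size factors, no filter, a replicate block, merged ends and each library left out. Tables and figures were made in Python 3.11.15 with pandas 2.3.3 and matplotlib 3.10.9. The fitting code was also run on simulated counts, with larger changes than the members showed and no replicate effect. That run is no test of the blocked calls. Same-numbered libraries share their replicate label, and their deviations from the group means correlated in all 6 pairs of RNA-Seq and POL-Seq groups (r = 0.188 to 0.387) and in all 3 pairs of 3′ end libraries (r = 0.400 to 0.657), so the number was treated as a block in the paired fits. The members, the list of 78 regulators and the markers were chosen with earlier results of these data known. All members are named, with Elavl4, and from the regulators up to 5 per comparison and direction with the smallest p-value and no overlap between groups, and the 5 with the most CRAC coverage. The result of 1 marker list is not reported here.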

Additional observations from a re-analysis of the deposited data

How the results depend on the processing

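No member passed at an adjusted p under 0.05 in any of the 7 comparisons of the fits without a block, and this held with DESeq2's size factors, without the filter on low counts and in DESeq2's Wald test. With the replicate block 1 member, Mapt, passed in 3′ ends, and 1 with ends within 20 nt merged and the block, an alternative chosen after seeing the data. Leaving out libraries gave 0 to 2 members in polysome association of control cells and 0 to 1 in 3′ ends, the latter in blocked fits without 1 replicate number, also chosen after seeing the data. The block changed no other call of a member. Over all genes, calls in polysome association of control cells numbered 26, with 41 under the replicate block, 67 in DESeq2's Wald test, 0 in a fit to the control libraries alone and 0 to 2145 with a library left out. In HuD cells they numbered 80, with 416 under the block, 240 in DESeq2 and 0 to 411. In total RNA 0 became 1 in DESeq2 and 0 to 1, in polysomal RNA 3 and 0 to 372, and in TE 0 to 47. In 3′ ends 5 became 217 under the block, 251 with merged ends and the block, 35 in DESeq2, 2 to 14 with a library left out, and 8, 203 and 226 in the blocked fits without replicate 1, 2 and 3. In site usage 1 became 0 with merged ends and 0 to 1. The counts of 2145, 372 and 47 came without the control POL-Seq library of replicate 1 and that of 411 without replicate 2, and the cause was not tested. Where an RNA-Seq or POL-Seq library is left out, its group keeps 1 library, which is assumed to vary like the other groups. Of the 9 CRAC windows 0 had a deposited p-value under 0.05.

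Of 744 member values under alternatives, 40 changed sign, all with a library or a replicate number left out and none of them a value that had passed. The log2 ranges with a library left out were, for polysome association of control cells, −0.53 to 0.13 (Stmn2), −0.013 to 0.063 (Stmn3), −0.24 to 0.20 (Stmn4), −0.056 to 0.11 (Crmp1) and −0.0065 to 0.080 (Mapt), and for polysome association of HuD cells −0.46 to 0.35 (Stmn2). For total RNA they were −0.0041 to 0.16 (Map2), −0.20 to 0.0042 (Dpysl3), −0.094 to 0.068 (Crmp1), −0.37 to 0.44 (Stmn2) and −0.029 to 0.057 (Stmn3). For polysomal RNA they were −0.14 to 0.51 (Stmn2), −0.0043 to 0.074 (Crmp1), −0.019 to 0.20 (Map2), −0.17 to 0.030 (Map1b) and −0.10 to 0.053 (Dpysl2). For TE they were −0.26 to 0.57 (Stmn2), −0.093 to 0.12 (Map2), −0.19 to 0.080 (Stmn1), −0.20 to 0.071 (Dpysl3), −0.00052 to 0.10 (Mapt), −0.025 to 0.42 (Stmn4) and −0.037 to 0.13 (Crmp1). For 3′ ends they were −0.10 to 0.083 (Dpysl3), −0.32 to 0.13 (Stmn1) and −0.37 to 0.13 (Crmp1). In the blocked fit without replicate 3, Map1b in 3′ ends was at −0.075, and without replicate 1, Dpysl3 at 0.11. Mapt in total RNA, polysomal RNA and 3′ ends kept its sign throughout.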
